A study of Caenorhabditis elegans with 4 samples.

Results

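HTP-3 occupancy of the X chromosome was described from every called interval on X in the authors' combined peak list, 1663 of the 11716 peaks in that list. No other criterion was used. The same chromosome held 450 of the 3295 peaks of the replicate 1 list and 624 of the 4007 peaks of the replicate 2 list. The study is a chromatin immunoprecipitation sequencing (ChIP-seq) experiment in whole Caenorhabditis elegans of the strain fem-2(b245), genotype fem-2(b245)III, labelled as hermaphrodites at the germline-containing young adult stage and grown at 20 °C. All 4 samples share this background: 2 ChIP libraries made with 5 µg of a rabbit polyclonal antibody to HTP-3, and 2 input DNA libraries. All 4 were also crosslinked alike, with the crosslinker EGS for 20 min and with EGS and formaldehyde for 10 min. The protocol text describes harvest of gravid adults, so the stage wording of the labels is not uniform. No wild-type group, other antibody or other stage was analysed here, and whole worms mix germ cells with somatic cells. Whether the replicates were grown separately is not in the labels, and their spread may be a technical one.

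HTP-3 carries a HORMA domain and belongs to the chromosome axis of meiosis, the protein core from which chromatin loops project when homologous chromosomes pair. In C. elegans it is needed to load other axis proteins, to form meiotic double-strand breaks and to build the synaptonemal complex between homologues. The X chromosome pairs through a pairing centre near its left end, where the zinc-finger protein HIM-8 binds. X is also kept largely silent through much of germline development, unlike the autosomes. fem-2 encodes a protein phosphatase that promotes male fates, including the making of sperm.

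Peaks on X were mostly short, as on the autosomes, and were found along the whole chromosome. In the combined list a smaller share of them lay in tight clusters than on II to V. In the combined list the density was 93.9 peaks per Mb over an extent of 17.7 Mb, and peaks covered 662 kb, 3.74% of X. The replicate 1 list gave 25.4 peaks per Mb and 1.74% covered, and the replicate 2 list 35.2 peaks per Mb and 5.94% covered, a mean of 30.3 ± 6.95 peaks per Mb (SD, n = 2). Replicate 2 therefore covered more of X than the combined list with fewer, wider peaks. On the reference autosomes, II, III, IV and V, the combined density was 120.4 ± 30.6 peaks per Mb (SD, n = 4 chromosomes), from 85.5 on V to 160.0 on III. X lay inside this range in the combined and replicate 2 lists and was lowest, just under V, in replicate 1. In the combined list it was at 0.780 of the mean (two-sided exact permutation test with X as 1 of 5 chromosomes, p = 0.60, adjusted p = 0.77). All 9 comparisons of X with the reference autosomes used this test, in which the smallest possible p is 0.20, so none of them could pass the threshold of 0.05. They rest on 1 X chromosome, and statements that X was highest or lowest describe 5 chromosomes only.

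Peak width on X ran from 146 to 14219 bp in the combined list, with quartiles of 207 and 439.5 bp and a median of 290 bp. The autosomal medians were 290.5 bp on II and V, 300 bp on IV and 305 bp on III (ratio of X to their mean 0.978, exact p = 0.40, adjusted p = 0.72). In replicate 1 the median on X was 490 bp, above the 475 to 481 bp of the autosomes, and in replicate 2 it was 1251.5 bp, below the 1357 to 1619 bp of the autosomes. The direction of the width difference thus differed between the replicate lists. Among combined X peaks, 386 were at most 200 bp wide, 490 were between 200 and 300 bp, 485 between 300 and 500 bp and 227 between 500 and 1000 bp. The remaining 75 peaks were wider than 1 kb, 4.51% of X peaks against 5.82% of peaks on II to V. Width and the authors' score, deposited per peak on an unstated scale, went together over X peaks, with a Spearman rho of 0.663 in the combined list (n = 1663), 0.849 in replicate 1 (n = 450) and 0.638 in replicate 2 (n = 624). Peaks of a list come from the same library or libraries, so these are descriptions only.

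The 5 widest combined peaks on X overlapped both replicate lists. The widest, 14219 bp at 16929266 to 16943484 on WS220, was also wider than any combined peak on II to V, where the widest was 12593 bp. In the replicate lists X did not hold the widest peak. In replicate 1 the widest on X was 6757 bp, below II (11362 bp) and V (8164 bp) and above III and IV. In replicate 2 it was 15868 bp, below II (22600 bp) and III (17951 bp) and above IV and V. Replicate 1 covered the widest combined X peak with 3 adjoining peaks, 14087 bp in all, and replicate 2 with 1 peak of 14107 bp. The next 4 were 5007 bp at 3111709 to 3116715, 4075 bp at 8019421 to 8023495, 4067 bp at 6251939 to 6256005 and 3992 bp at 2059920 to 2063911. Each of these met 1 replicate 2 peak, between 6691 and 10593 bp wide, and 1 or 3 replicate 1 peaks. Of the 75 X peaks over 1 kb, 69 (92.0%) overlapped both replicates, close to the 90.2% of such peaks on II to V. Gene features at these intervals were not analysed here.

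The 10 combined X peaks of highest score that overlapped both replicates were between 458 and 2005 bp wide, with scores from 132.31 to 156.80. They were scattered over the chromosome. The first was at 2242737 to 2243214 (score 156.80, 478 bp), the second at 16611191 to 16613007 (154.02, 1817 bp) and the third at 4711755 to 4712341 (153.50, 587 bp). The fourth lay at 14817405 to 14819409 (146.00) and was the widest of the 10. Further peaks lay at 7822820 to 7823678, 2851981 to 2853032, 10568184 to 10569130 and 1503439 to 1505192. The last 2 were at 9958074 to 9958955 and 12521661 to 12522118. In the replicate lists the sites also ranked high, with at most 12.0% of replicate 1 X peaks and 11.4% of replicate 2 X peaks above them. The choice and these ranks are not independent, since the combined list is named for the experiment as a whole. Ties occurred at the top of the replicate lists, where 4 replicate 1 X peaks and 3 replicate 2 X peaks had a score of exactly 3100.

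The median combined score was higher on X than on each reference autosome. It was 8.58 on X and between 7.55 and 7.63 on II to V. As a rank among all combined peaks of these 5 chromosomes, the X median was at percentile 54.2 and the autosomal medians were between 48.9 and 49.4 (exact p = 0.20, the smallest possible, adjusted p = 0.45). Of X peaks, 22.4% were in the highest-scoring quintile of the 5 chromosomes and 17.1% in the lowest, whereas the autosomes had 18.4% to 20.7% in the highest and 20.2% to 21.0% in the lowest. In replicate 1 the X median was likewise highest, at percentile 55.2 against 47.5 to 51.5. In replicate 2 it was at 50.2, within the autosomal range of 47.5 to 52.0 (exact p = 0.80).

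The median distance between neighbouring peaks was longer on X than on each reference autosome. Midpoints of neighbouring combined peaks were a median of 3.39 kb apart, with quartiles of 1.28 and 12.9 kb. The autosomal medians were 2.03 kb on III, 2.27 kb on II, 2.32 kb on IV and 2.63 kb on V, so the X median was 1.47 times their mean of 2.31 ± 0.244 kb (SD, n = 4 chromosomes; exact p = 0.20, the smallest possible, adjusted p = 0.45). X had the longest median in each replicate list as well. In replicate 1 it was 18.0 kb against 6.42 to 12.4 kb on the autosomes, and in replicate 2 it was 15.1 kb against 9.78 to 14.0 kb. The replicate mean on X was 16.6 ± 2.08 kb (SD, n = 2). With combined peaks merged across gaps of at most 500 bp, X at 5.44 kb was no longer the longest, the highest autosomal median being 5.57 kb (exact p = 0.60).

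In the combined and replicate 2 lists V had fewer peaks per Mb than X but a shorter median distance, while in replicate 1 X at 25.4 and V at 25.5 peaks per Mb were close. In the combined list, 291 of 1662 distances on X (17.5%) were under 1 kb, against 22.4% on V and up to 27.3% on III. Distances of 20 to 50 kb made up 13.7% on X and 7.12% to 12.1% on the autosomes, while those over 50 kb made up 3.85% on X and 5.43% on V. The share over 50 kb was also lower on X than on V in replicate 2, at 17.7% and 21.2%, but higher in replicate 1, at 28.3% and 26.1%. The coefficient of variation of the distances was 1.56 on X and 1.68 to 1.84 on the autosomes. X was also lowest in replicate 1, with 1.30 on X and 1.36 to 1.64 on the autosomes, whereas in replicate 2 X at 1.32 lay within the autosomal range of 1.28 to 1.55. Set relative to the mean distance of its own chromosome, the X median was 0.318 of the mean, inside the autosomal range of 0.224 to 0.325, below III and above II, IV and V. In the replicate lists X was the highest of the 5 chromosomes, at 0.458 against 0.208 to 0.420 in replicate 1 and at 0.531 against 0.395 to 0.516 in replicate 2.

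**Figure D1:**
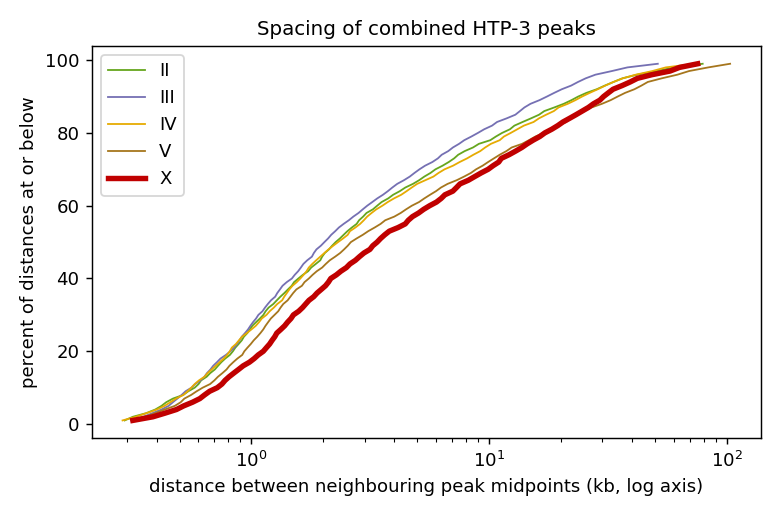
Cumulative distribution of the distance between midpoints of neighbouring combined peaks, in kb on a log axis, with 1 line per chromosome and percent of distances on the vertical axis. At percentiles 2 to 82 the X line lies to the right of the others, its median being 3.39 kb, and at longer distances it crosses to the left of V (30.3 and 34.8 kb at percentile 90).

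Tight clusters were fewer on X than on each reference autosome. A cluster was taken as 3 or more combined peaks in which each peak-free gap was at most 500 bp. X held 56 clusters with 222 peaks, 13.3% of its peaks, and 3.16 clusters per Mb. On the autosomes the share was 19.2% on V, 21.7% on IV, 22.1% on II and 23.5% on III, with 4.26 to 9.94 clusters per Mb (ratio of shares 0.618, exact p = 0.20, the smallest possible, adjusted p = 0.45). Single peaks made up 71.3% of X peaks (1185 peaks) and pairs 15.4% (256 peaks). In replicate 2 the share in clusters on X, 2.40%, was also below the 4.76% to 6.92% of the autosomes, and in replicate 1 X at 12.2% was above IV at 11.7% and below the other 3 autosomes. None of the 5 chromosomes had replicate 2 midpoints under 1 kb apart.

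**Figure D2:**
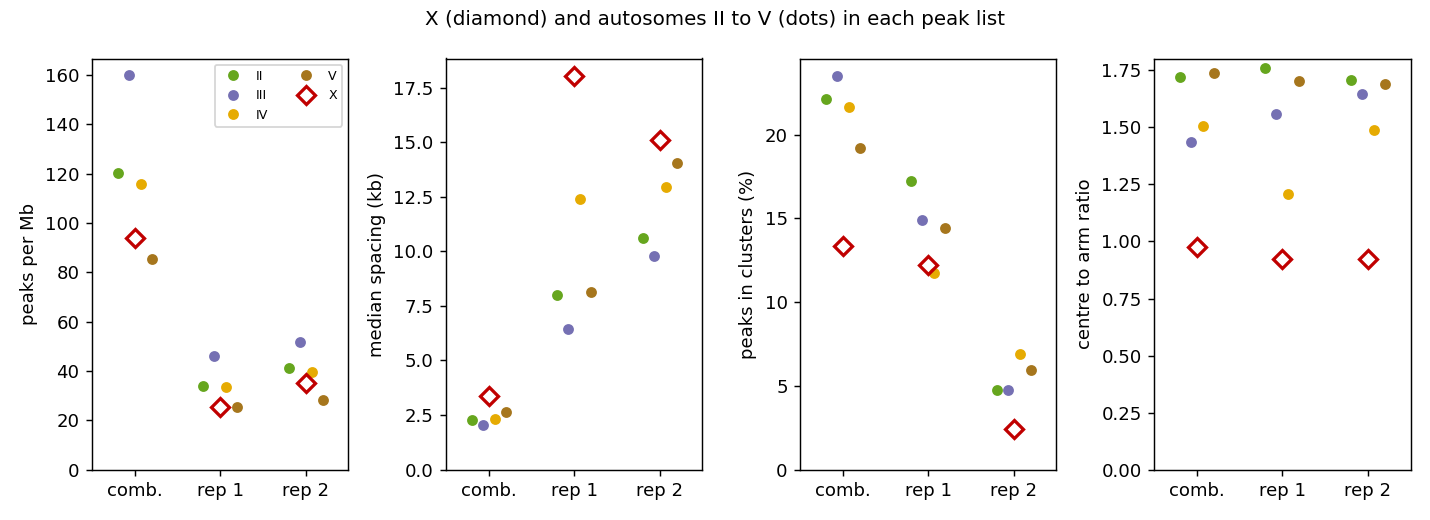
Peaks per Mb, median distance between neighbouring midpoints in kb, percent of peaks in clusters and centre to arm density ratio, for X (diamond) and autosomes II, III, IV and V (dots) in the combined and both replicate lists. X has the longest median spacing and the lowest centre to arm ratio in all 3 lists, and the lowest share in clusters in the combined and replicate 2 lists.

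Of the 56 clusters on X, 29 held 3 peaks, 13 held 4, 6 held 5, 5 held 6, 2 held 7 and 1 held 9. They spanned 711 to 12412 bp (median 2640 bp), and peaks filled a median of 76.7% of the span. A replicate 2 peak met 52 of the clusters, and in 38 of them 1 replicate 2 peak overlapped every combined peak of the cluster. Replicate 1 met 47 clusters and had such a single spanning peak in 2. Most clusters on X were therefore a run of separate calls in the combined list and 1 broad call in replicate 2. These cluster counts were made on X only and are not shown to be particular to X. Replicate 2 peaks that met 2 or more combined peaks numbered 174 of 624 on X. On the autosomes they numbered 282 of 630 on II, 340 of 715 on III, 282 of 694 on IV and 225 of 587 on V.

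The cluster with the most peaks lay at 11478638 to 11485263, where 9 peaks of 167 to 2183 bp spanned 6626 bp with scores from 3.80 to 25.41. Replicate 1 had 3 peaks there and replicate 2 had 1 of 7908 bp. A cluster of 7 peaks at 4136349 to 4148760 was the longest, at 12412 bp, and 86.0% of it was covered. Replicate 1 had 5 peaks there, up to 4012 bp wide, and replicate 2 had 1 of 11970 bp. The highest score at this cluster was 3100 in both replicate lists. The other cluster of 7 peaks, at 17419812 to 17424440 near the right end, was lower, with combined scores from 4.20 to 11.58. There, replicate 1 had 1 peak of 350 bp and replicate 2 had 2 peaks. The widest replicate 2 peak on X, 15868 bp at 6735075 to 6750942, covered 12 combined and 9 replicate 1 peaks; it was singled out after its values were seen.

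**Figure D3:**
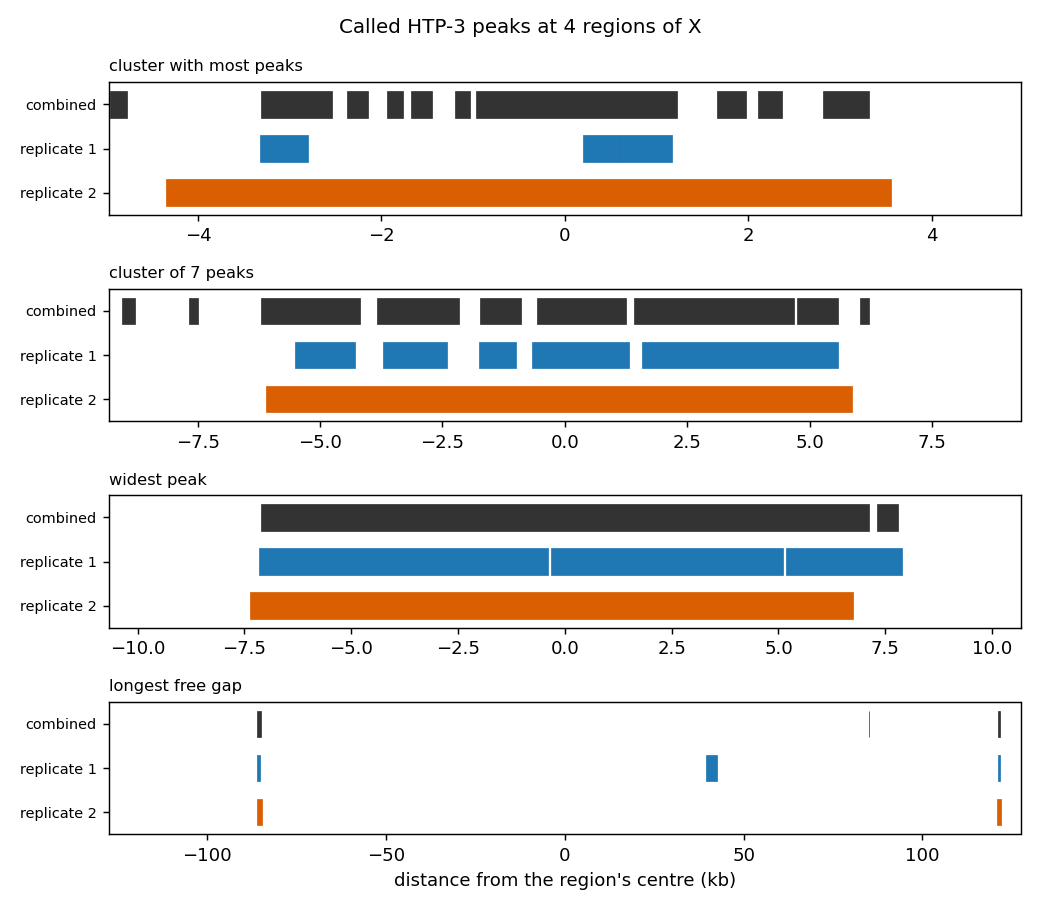
Called peaks of the combined, replicate 1 and replicate 2 lists at the cluster of 9 peaks, the longer cluster of 7 peaks, the widest combined peak and the longest peak-free gap on X, against distance from the centre of each region in kb. At both clusters 1 replicate 2 interval spans several combined peaks, and replicate 1 calls that lie within a few bases of each other are drawn as touching.

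Clustered peaks differed from single peaks in replicate support more than in score. Of the clustered X peaks, 37.4% overlapped both replicates and 7.21% neither, compared with 18.9% and 52.4% of single peaks. Median scores were close, 8.24 for clustered and 8.64 for single peaks, and median widths were 408 and 276 bp. Since a broad replicate 2 interval supports every peak of a cluster at once, these shares do not count independent events. Clustered and single peaks were compared on X only, so the contrast is not shown to be particular to X.

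X and the autosomes were alike in the share of combined peaks found in both replicates. On X, 376 of 1663 peaks (22.6%, 95% Wilson interval 20.7 to 24.7) overlapped a peak of each replicate, against 22.7% on II to V (exact p = 1.0). Overlap with replicate 2 only was seen for 549 X peaks (33.0%), against 38.2% on II to V. This share was lowest on X, the autosomes running from 34.8% on V to 40.6% on III. Overlap with replicate 1 only was seen for 50 X peaks (3.01%), against 3.11% on II to V. The 688 X peaks that overlapped neither made up 41.4% (interval 39.0 to 43.8), against 36.0% on II to V, where the chromosomes ran from 33.5% on III to 38.4% on V. These intervals reflect the counting of peaks alone, as if neighbours were independent. With a reciprocal overlap of 50%, which peaks of very unlike width cannot meet, the share in both replicates was 3.73% on X. On II to V it was 2.18% on average, so the order of X and the autosomes turned with the criterion. Peaks in both replicates had a median width of 563 bp and a median score of 38.5, and those in neither 212 bp and 5.54.

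Replicate support on X was higher among higher-scoring peaks. This is not an independent check, since the lists are of the same experiment. The combined list also overlapped 97.1% of replicate 1 and 99.0% of replicate 2 X peaks. Shares by score quintile were taken for X only, so the rise is not shown to be particular to X. In the lowest-scoring quintile of X peaks 2 of 333 (0.601%, interval 0.165 to 2.16) overlapped both replicates, in the fourth 82 of 333 (24.6%, interval 20.3 to 29.5) and in the highest 271 of 332 (81.6%, interval 77.1 to 85.4). Peaks in neither replicate made up 66.1% of the lowest quintile and 0.904% of the highest, 3 peaks. Wider peaks had more support, from 4 of 386 peaks at most 200 bp wide to 146 of 227 peaks between 500 and 1000 bp. A wider peak meets the criterion of 1 shared base more easily, and the parts of width and score were not separated.

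**Figure D4:**
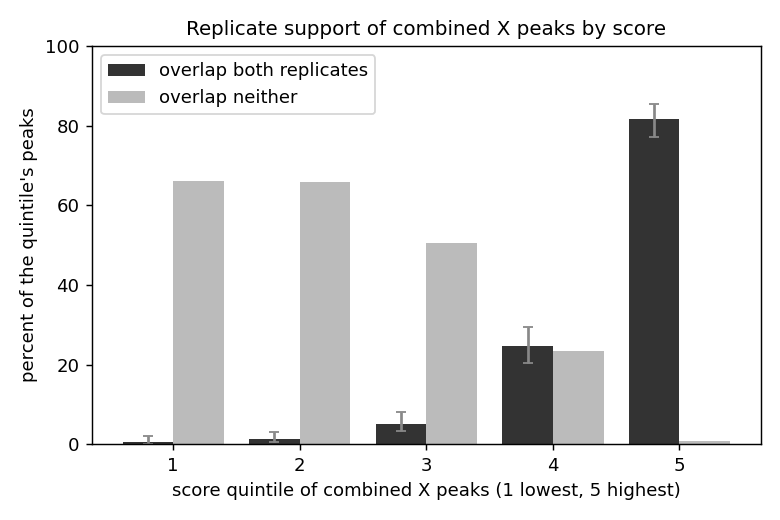
Percent of combined X peaks that overlapped both replicate lists (dark bars, with 95% Wilson intervals) or neither (light bars), by quintile of the combined score from 1 (lowest) to 5 (highest). Support in both rises from 0.601% to 81.6%, with most of the rise in the 2 highest quintiles. The lists are of the same experiment, so score and support are not independent.

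Between the replicates themselves, 398 of 450 replicate 1 X peaks (88.4%, interval 85.2 to 91.1) overlapped replicate 2, against 87.0% on II to V. In the other direction 309 of 624 replicate 2 X peaks (49.5%, interval 45.6 to 53.4) overlapped replicate 1, against 52.3% on II to V. Where exactly 1 peak met exactly 1 peak, in 258 pairs on X, the median offset of midpoints was 53 bp and the replicate 2 peak was wider in all 258, by a median of 2.83 times (quartiles 2.21 and 3.94). Such pairs were formed on X only and are not shown to be particular to X. Median widths on II to V also differed, at 475 to 481 bp in replicate 1 and 1357 to 1619 bp in replicate 2. A reciprocal overlap of at least 50% was met by 43 X peaks in either list, which is 9.56% in replicate 1 and 6.89% in replicate 2. On the autosomes these shares were 3.61% to 8.66% and 3.22% to 7.35%. A pair in which 1 peak is more than 2 times as wide as the other cannot meet this criterion. The shares therefore depend on the width difference and do not tell how often boundaries agreed. In all, 50 of 624 replicate 2 peaks on X spanned 2 or more replicate 1 peaks. On the autosomes 81 of 630 did so on II, 102 of 715 on III, 96 of 694 on IV and 67 of 587 on V.

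The combined list overlapped 437 of 450 replicate 1 peaks on X (97.1%) and 618 of 624 replicate 2 peaks (99.0%), near the 96.7% and 98.2% on II to V. The 13 omitted replicate 1 peaks had a median width of 1562 bp and scores up to 434.61, and none of them overlapped replicate 2. The second-widest replicate 1 peak on X was among them, 6209 bp at 10362984 to 10369192 with a score of 366.77 and no combined or replicate 2 call; it was singled out after its values were seen. The 6 omitted replicate 2 peaks were 1055 to 2561 bp wide, scored at most 121.19, and did not overlap replicate 1.

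Long stretches of X carried no combined peak. Gaps of 20 kb or more between combined peaks numbered 286 and added up to 11373.5 kb, 64.2% of X, while on the autosomes they took up 43.4% of III to 71.2% of V. Replicate 1 peaks reached into 64 of these gaps and replicate 2 peaks into 200, mostly at their edges, since a replicate 1 midpoint lay in 11 and a replicate 2 midpoint in 7. No peak of either replicate met the remaining 76. Gaps met by replicate peaks were counted on X only, so these counts are not shown to be particular to X. The gaps were spread evenly, with 95, 95 and 94 wholly within the left, middle and right of 3 equal parts. The longest gap was 169.9 kb at 1627713 to 1797594, followed by 127.8 kb at 12234700 to 12362515 and 123.5 kb at 6940904 to 7064425. The longest gap of each autosome was between 136.3 kb (II) and 213.5 kb (V), so X lay within their range (exact p = 0.80, adjusted p = 0.90). The longest gap held a replicate 1 peak of 2908 bp with a score of 220.27 that had no combined counterpart. The edge of a replicate 2 peak of 1516 bp also reached into the longest gap, by 249 bp. In the gap at 12234700 only the edge of a replicate 2 peak intruded, by 391 bp. The gap at 6940904 was empty in both replicate lists. In the replicate lists themselves the longest gaps on X were 295.0 kb and 343.4 kb.

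The middle and the outer parts of X had close densities. With X cut into 3 equal parts, the middle part held 92.5 combined peaks per Mb and the outer parts 94.6, a ratio of 0.978. By equal parts II to V had ratios from 1.44 to 1.74 (exact p = 0.20, the smallest possible, adjusted p = 0.45). The replicates gave 0.922 and 0.923 on X and at least 1.21 on each autosome. When the middle 50% was taken as the centre, the combined ratio became 1.07 on X and 1.64 to 2.22 on II to V. From left to right, the 3 parts of X held 86.4, 92.5 and 102.8 combined peaks per Mb. In replicate 1 they held 24.6, 24.0 and 27.6, and in replicate 2 32.7, 33.4 and 39.6, so the right part was the densest in all 3 lists. Median width was 285.5 bp in the left and middle parts and 298 bp in the right part of the combined list, and the share of peaks in both replicates was 24.5%, 21.1% and 22.4%. Clusters numbered 18, 20 and 18.

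In 35 bins of 506 kb the combined density on X ran from 39.5 to 154.1 peaks per Mb, with a coefficient of variation of 27.6%, against 35.4% on IV to 51.9% on V. The replicates had 38.6% and 31.7% on X and at least 41.1% and 36.6% on the autosomes. The fullest bins were at 4049039 to 4555167 with 78 combined peaks, at 12147115 to 12653244 with 69 and at 15183894 to 15690022 with 66. The first ranked 2 in replicate 1 and 1 in replicate 2, the next ranked 6 and 3, and the last 3 and 5. The emptiest bins were at 1518390 to 2024519 with 20 peaks, at 11640985 to 12147114 with 25 and at 506130 to 1012259 with 29. The bin at 11640985 was also the emptiest of X in replicate 2, with 4 peaks, and ranked 33 of 35 in replicate 1; it directly adjoins the bin with 69 peaks. The bin at 506130 ranked 19 and 22 in the replicates and was not sparse there. Bin densities of the replicates had a Spearman rho of 0.488 over the 35 bins, which share a chromosome and are not independent. In the combined list the rho between a bin and the next was -0.02. The densest bin of replicate 1, with 27 peaks, lay at 7591947 to 8098076 and ranked only 25 in replicate 2; it was singled out after its values were seen.

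**Figure D5:**
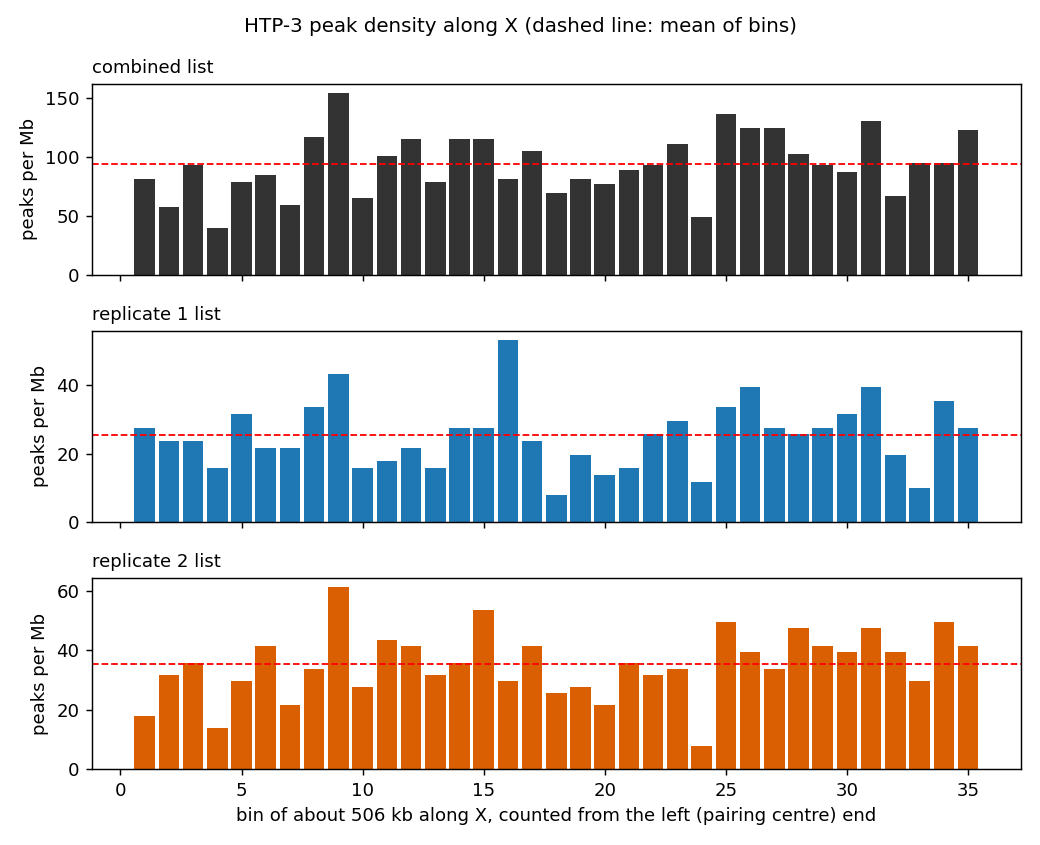
HTP-3 peaks per Mb in 35 bins of 506 kb along X, counted from the left end, for the combined, replicate 1 and replicate 2 lists, with the mean of bins as a dashed line. The peak at bin 9 (78 combined peaks) and the dip at bin 24 (25 combined peaks) are seen in all 3 lists.

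The left end, which carries the pairing centre, was not rich in peaks. The left part was sparser than the right by a ratio of 0.840 for combined peaks, 0.890 for replicate 1 and 0.825 for replicate 2. On the autosomes the pairing centre end, left on II, III and IV and right on V, stood to the opposite end at 0.480 to 1.15, so the X value lay within the range (exact p = 0.60, adjusted p = 0.77). X stood at 1.04 of the autosomal mean by these parts and at 0.742 by the first and last 2 Mb. In the first 2 Mb there were 134 combined peaks, 67.0 per Mb with a median spacing of 7.07 kb, and in the last 2 Mb 187 peaks, 93.5 per Mb with a median spacing of 3.52 kb. The replicates had 22.5 and 25.0 peaks per Mb in the first 2 Mb and 23.0 and 38.0 in the last, so only replicate 2 showed a gap of such size. The longest combined gap of X and nearly all of its emptiest bin lie in these first 2 Mb, and 5.22% of the combined peaks there were in clusters, against 9.63% at the right end. Their share in both replicates was 27.6%, against 21.4% at the right end.

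At the extreme left the replicates differed in kind. In the first 500 kb replicate 1 had 14 peaks covering 3.24%. Both this and the density of 28.0 peaks per Mb were above its values for all of X, 1.74% and 25.4. Replicate 2 had 9 peaks covering 2.04%, and this and its 18.0 peaks per Mb were below its values for X, 5.94% and 35.2. In the combined list 40 peaks there covered 2.56%, below the 3.74% for all of X. A single replicate 1 peak of 5565 bp at 289812 to 295376 made up 34.3% of the covered bases of replicate 1 there; it scored 70.64, met 7 combined peaks and had no replicate 2 call, and was singled out after its values were seen. All 3 lists began with a peak at the first base of X, 305 bp wide in the combined list, 342 bp in replicate 1 and 712 bp in replicate 2. The combined score of that peak was low, with 96.2% of X peaks scoring higher, while in the replicate lists 50.7% and 41.7% of X peaks scored higher. At the right end the last combined peak was at 17714386 to 17714542, and the last replicate peaks were at 17684770 to 17684962 and 17684351 to 17685357.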

How the data were processed

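The files are the authors' peak lists: 1 for each ChIP replicate and 1 combined list, with coordinates on WormBase WS220 per the file headers and ce10 per the submitters' processing notes, which also name BWA as a tool. Per the source column of the deposited files, replicate peaks came from MACS and the combined list from MACS version 2; the sources used here name no threshold, no control and no recipe for the combined list. Each peak has the authors' deposited score, on an unstated scale, starting at 50.02, 50.01 and 1.30, so scores were ranked within a list only; other deposited columns are interval starts and ends. Read depth is unknown, so precision is known only from peak counts. No input file was used, and no sequence or gene annotation of this build was analysed here.

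Peaks were placed by midpoint, and the extent of a chromosome was its largest peak end in any list. Overlap meant at least 1 shared base. Quantities were computed per chromosome with numpy 2.4.6, scipy 1.17.1 and pandas 2.3.3 under Python 3.11.15, drawn with matplotlib 3.10.9, with functions checked on simulated data. X was compared with II, III, IV and V (I was not used as a reference) by exact permutation, with Benjamini-Hochberg adjustment over 9 tests. Named regions were the 10 highest-scoring X peaks in both replicates, the 5 widest, the 3 fullest clusters, the 3 longest gaps, the 3 fullest and 3 emptiest bins and the end peaks. Alternatives were each replicate list alone, the 50% of combined peaks with the highest score, merged neighbours, other overlap and cluster criteria, covered length and other definitions of ends and centre; a reference without V was added after seeing the data. The chromosome, lists and measures were chosen with earlier results of these data known.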

Additional observations from a re-analysis of the deposited data

How the results depend on the processing

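Over 51 alternative values of the 9 comparisons with II to V, 45 kept the side of 1 on which X lay. In no alternative was the exact p below 0.20, and the test cannot pass its threshold, so this speaks to direction only. Spacing, peaks in clusters, density and centre to arm ratio kept their side of 1 throughout, although X was not the longest in spacing with merged neighbours. With the middle 50% as the centre, the centre to arm ratio on X itself went from 0.978 to 1.07. On the autosomes it was then 1.64 to 2.22. The score percentile came to 1.00 in replicate 2, where X lay within the autosomal range. X relative to the autosomal mean was 1.17 to 2.06 for spacing, 0.429 to 0.839 for the share in clusters, 0.711 to 0.876 for density, 1.00 to 1.13 for score percentile and 0.565 to 0.640 for centre to arm ratio. The share supported by both replicates turned from 0.996 to 1.71 with a reciprocal overlap of 50%. It was then 3.73% on X and 2.18% on average on II to V. This share turned to 1.14 when each peak of both replicates was replaced by 478 bp about its midpoint. That is the median width in replicate 1, so narrower peaks were widened and wider ones trimmed. The ratio of the pairing centre end to the opposite end on X, 1.04 of the autosomal mean, turned to 0.981 with merged neighbours and to 0.742 over the first and last 2 Mb. Each replicate list alone, which differs from the combined list also in the caller named and the range of scores, gave 0.924 to 1.31 for the longest gap and 0.839 to 1.02 for the median width; the ranges were 1.27 to 2.06 for spacing, 0.429 to 0.839 for clusters, 0.730 to 0.876 for density, 1.00 to 1.13 for score percentile, 1.05 to 1.08 for the end ratio and 0.565 to 0.592 for centre to arm. The longest gap (0.924) and the median width (1.02) changed sides in the replicate 1 list. The cause was not tested. No paired analysis was possible because the input libraries have no peak list here and no groups were compared.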
